A study of Mus musculus with 12 samples.

Results

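The mitochondrial solute carriers (SLC25 family) and the uncoupling proteins are described here in mouse gastrocnemius muscle. Members were the transcript clusters whose only annotated gene symbol was Slc25a followed by a number, or Ucp1, Ucp2 or Ucp3, with Slc25a20 set aside. This rule gave 51 of the 28944 transcript clusters on the array, for 47 of the 19938 genes that have a transcript cluster of 1 symbol. Ucp2 and Slc25a52 were not analysed here, because none of their transcript clusters is annotated to them alone.

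Both groups were male germ-free ICR mice, Tsl;ICR[GF], labelled as 11 weeks old, which had been given feces by gavage and were then kept under specific-pathogen-free conditions on a high-fat diet. The 6 RS mice were recipients of feces from sedentary donors, and the 6 RT mice were recipients of feces from trained donors. RNA of whole gastrocnemius muscle was hybridized 1 week after the first gavage, 1 array per mouse. According to the paper, the gavage was repeated through the housing period, and the mice of both groups were fasted for a few hours before tissue was taken. No group without transplanted feces was arrayed, recipients of a group were housed together and received the same fecal material, and cage and donor training therefore cannot be told apart. The p-values measure the spread between these mice.

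Carriers of the SLC25 family sit mostly in the inner mitochondrial membrane and move metabolites, nucleotides, phosphate and cofactors between matrix and cytosol. In muscle the ADP/ATP carrier exports the ATP made by oxidative phosphorylation, the phosphate carrier brings in the substrate for it, and the aspartate-glutamate and oxoglutarate carriers form the malate-aspartate shuttle, which brings reducing equivalents into the matrix. The uncoupling proteins belong to the same family: UCP1 lets protons leak across the inner membrane in brown fat, and UCP3 is found mainly in skeletal muscle, where it rises with fatty acid supply and fasting.

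Of the 51 members, 11 were called higher in RT muscle and 3 lower (21.6% and 5.88%), against 11.9% and 13.0% of all transcript clusters. Among the 37 members above the array-wide median signal, 27.0% were higher and 0 lower, against 20.6% and 10.7% of such transcript clusters. Among the 14 members below it, 7.14% were higher and 21.4% lower, against 3.21% and 15.3%. Slc25a16, Slc25a17 and Slc25a24, which carry coenzyme A, peroxisomal cofactors and ATP-Mg, were 1.42-fold, 1.33-fold and 1.36-fold higher, and kept their calls without any 1 of the 12 arrays. With the spread of signal of each array as a covariate in the fit, Slc25a16 was not called. Slc25a12, the muscle aspartate-glutamate carrier, and Slc25a1, the citrate carrier, were also higher. Neither was called with that covariate, or without RS-4 and RS-6, the arrays of narrowest spread. Slc25a4, the ADP/ATP carrier of muscle, and Slc25a3, the phosphate carrier, differed by 0.05 and −0.03 on the log2 scale and were not called. Ucp3 differed by −0.45, with a spread among RS mice larger than that difference.

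The RefSeq promoter table (mouse build GRCm38.p6) held 47 promoters of 37 of the 47 genes, and those of Slc25a16, Slc25a17 and Slc25a24 are shown because each of these carriers was called higher whichever array was left out. The same held for a transcript cluster assigned to Slc25a40. Its assignment is uncertain, as given below, and no promoter of that gene is shown. The motifs searched were chosen with the results known. Each sequence is the 250 bases before the annotated start of transcription, in the direction of the gene, and capitals mark a GABP motif.
Slc25a16, chr10:62920383-62920632, plus strand: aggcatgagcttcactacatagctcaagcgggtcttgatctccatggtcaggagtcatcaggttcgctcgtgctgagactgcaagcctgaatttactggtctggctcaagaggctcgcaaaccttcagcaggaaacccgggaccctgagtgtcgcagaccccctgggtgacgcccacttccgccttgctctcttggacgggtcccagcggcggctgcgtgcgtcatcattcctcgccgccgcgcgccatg
Slc25a17, chr15:81360766-81361015, minus strand: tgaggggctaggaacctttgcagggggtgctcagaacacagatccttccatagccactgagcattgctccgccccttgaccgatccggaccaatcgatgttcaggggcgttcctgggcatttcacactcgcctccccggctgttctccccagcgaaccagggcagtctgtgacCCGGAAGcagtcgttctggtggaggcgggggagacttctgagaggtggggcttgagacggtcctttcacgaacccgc
Slc25a24, chr3:109122899-109123148, plus strand: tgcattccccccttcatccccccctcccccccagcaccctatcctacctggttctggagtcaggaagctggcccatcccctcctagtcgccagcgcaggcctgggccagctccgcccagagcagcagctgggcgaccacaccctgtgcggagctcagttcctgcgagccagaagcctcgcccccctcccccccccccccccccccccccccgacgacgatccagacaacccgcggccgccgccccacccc
The share of G and C was 60.8% for Slc25a16, 61.2% for Slc25a17 and 72.8% for Slc25a24. Its median was 57.6% over the member promoters and 52.4% over all promoters. In these windows, on both strands, 4 motifs of factors known to act on mitochondrial or cAMP-responsive genes were searched: the NRF-1 core, AAGGTCA for ERR, CCGGAAG for GABP and TGACGTCA for CRE. None of the motifs contains another of them. The GABP word was at position −77 of the Slc25a17 window, counted from the annotated start. The windows of Slc25a16 and Slc25a24 held none of the 4 words, which says only that these letters are not there. Over the family, the GABP word was in 5 of 47 promoters (10.6%), those of Slc25a3, Slc25a4, Slc25a17, Slc25a38 and Slc25a54, against 6.91% of all 32851 promoters. NRF-1 was in 2 of them (4.26%), Slc25a3 and Slc25a31, against 3.74% of all, ERR in 1 (2.13%), Slc25a34, against 4.08%, and CRE in 2 (4.26%), Slc25a25 and Slc25a36, against 1.55%. Each word was thus found in at most 5 member promoters.

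RT was compared with RS over all transcript clusters on the log2 signal, and a member was called when its limma p was under 0.05 and, adjusted by Benjamini-Hochberg, under 0.1. By this rule 37 of the 51 members were not called. At an unadjusted p under 0.05 alone, 12 members were higher and 3 lower. Counting each gene by the transcript cluster with the highest mean signal, 10 of 47 genes were higher and 3 lower. For Slc25a5, Slc25a36 and Slc25a40 the brightest transcript cluster is one whose assignment is uncertain, as given below, and with those whose neighbors lie on the gene's own chromosome the counts were also 10 and 3, with Slc25a5 higher and Slc25a40 not called. The median log2 change of the members was 0.04 (−0.45 to 0.50), beside −0.01 over all transcript clusters, and 26 of the 51 changes were above 0. Increases and decreases were small, between 0.26 and 0.50 on the log2 scale for the called members. The 95% interval of a member's change reached from 0.14 to 0.79 to either side of it, so that a change of the size called here was not resolved for the most variable members.

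Signal went with the direction of the change on this array, and the members have to be read against transcript clusters of like signal. Among the transcript clusters with a mean signal above the array-wide median of 4.49, 20.6% were higher in RT and 10.7% lower. The 37 members above this median included 10 that were higher (27.0%) and 0 that were lower, and their median change was 0.14 against 0.08 for all transcript clusters above it. Below the median signal, 3.21% of transcript clusters were higher and 15.3% lower. The 14 members there included 1 that was higher (7.14%) and 3 that were lower (21.4%). Each share is thus nearer to that of transcript clusters of like signal than to that of the whole array. Signals of different transcript clusters do not rank their RNA levels, since probes differ in binding.

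**Figure D1:**
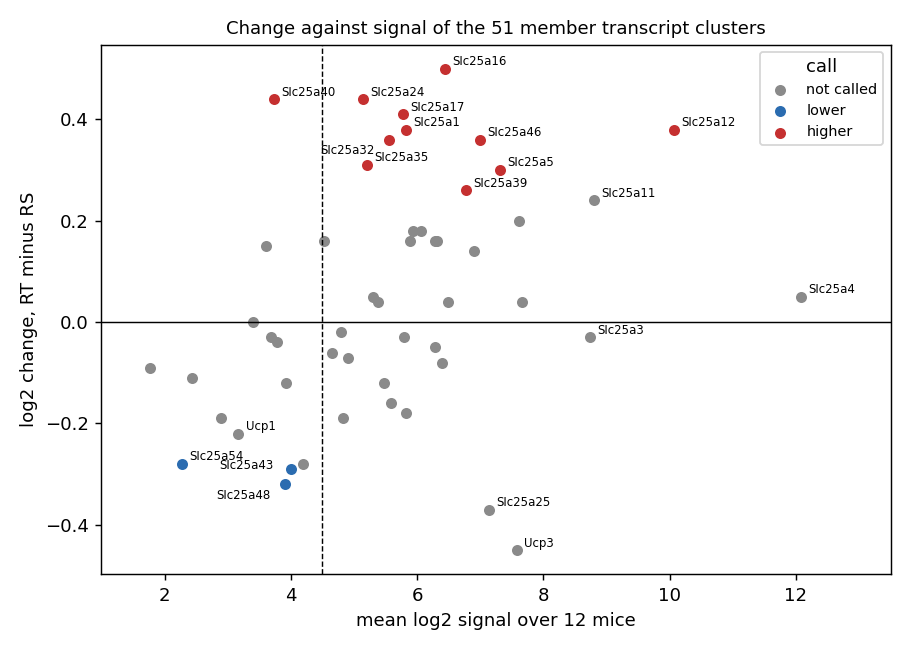
Log2 change of RT against RS (vertical axis) and mean log2 signal over the 12 mice (horizontal axis) for the 51 member transcript clusters, colored by call. The dashed line is the array-wide median signal of 4.49; 10 of the 11 members called higher lie to its right, and the 3 called lower lie to its left.

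A stricter reading is whether the 6 RS and the 6 RT values overlap at all. In 4 members (7.84%), Slc25a17, Slc25a24, Slc25a1 and a transcript cluster of Slc25a40, all RT mice were above all RS mice, against 2.69% of all transcript clusters. The reverse held for 0 members, against 3.10% of all. For a single member, the exact permutation test over all 924 splits of 6 against 6 (two-sided) gave between 0.00216, the smallest p it can give, and 0.0455 for the 14 called members.

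The arrays and the tissue set limits that touch these counts. RS-4 and RS-6 had a narrower spread of signal over all transcript clusters than the other 10 arrays, with SDs of 1.97 and 1.99 against 2.06 to 2.15. Without them, 4 members were higher (7.84%) and 0 lower, against 5.70% and 6.19% of all transcript clusters. With that spread as a covariate in the fit, 3 were higher (5.88%) and 0 lower, against 2.53% and 3.07% of all. After cyclic loess between arrays, 6 were higher (11.8%) and 2 lower (3.92%), against 9.57% and 9.73% of all, and the 2 lower ones were Slc25a26 and Slc25a33, named after their values were seen. When every array was centered to a common median, 17 members were higher (33.3%) and 0 lower, against 20.3% and 8.34% of all transcript clusters, whose median change moved to 0.06. The 3 members of the main comparison that were lower were thus called in none of these 4 settings by limma, and at an unadjusted p under 0.05 alone 4 members were lower without RS-4 and RS-6, 0 with the covariate and 1 after centering. The 4 members higher without RS-4 and RS-6 were Slc25a16, Slc25a17, Slc25a24 and the Slc25a40 transcript cluster, and the last 3 were also the ones called with the covariate.

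Markers of other cells moved with the groups. The fiber markers that define the tissue were measured in full, and by limma 0 of 8 for fast and general fibers and 0 of 7 for slow fibers were called, with 0 at an unadjusted p under 0.05 and 0 by the methods' test. The summed log2 level of the slow fiber markers ran from 11.27 to 13.05 in RS and from 10.06 to 12.65 in RT, with RT-6 lowest. All 7 of 8 macrophage and leukocyte markers that were measured, all 5 endothelial markers and all 7 of fibroblasts and matrix were higher in RT. Their summed log2 levels ran from 7.69 to 8.78, from 8.74 to 9.50 and from 11.12 to 12.13 in RS. In RT they ran from 8.97 to 9.54, from 9.46 to 9.84 and from 12.10 to 12.45, so that the leukocyte sums did not overlap. With RS-4 and RS-6 left out, 6 of 7 leukocyte, 3 of 5 endothelial and 5 of 7 fibroblast and matrix markers were called higher, with the covariate 5, 1 and 2, and by the methods' test 6, 5 and 4. Adipocyte markers were higher in 4 of the 6 measured of 7, with sums from 8.57 to 9.10 in RS and from 9.07 to 9.62 in RT, and 3 were called without RS-4 and RS-6 and 1 with the covariate. Of the 7 brown fat markers, 0 were higher and 1 was lower, with sums from 11.41 to 12.05 in RS and all RT sums within that range. That sum rests mostly on Cox8b and Cox7a1, with RS means of 10.97 and 10.36, and says little about the others. Their RS means ran from 2.38 to 6.29. Of the 3 erythroid markers measured of 7, 1 was higher and 1 lower, with sums from 5.71 to 6.14 in RS and from 6.17 to 6.74 in RT. Cells with mitochondria make carriers of this family, though not all cells make the same ones. In whole muscle, a change in the number of cells of a type and a change in RNA per cell cannot be told apart. The part of these cells in the values below was not tested.

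**Figure D2:**
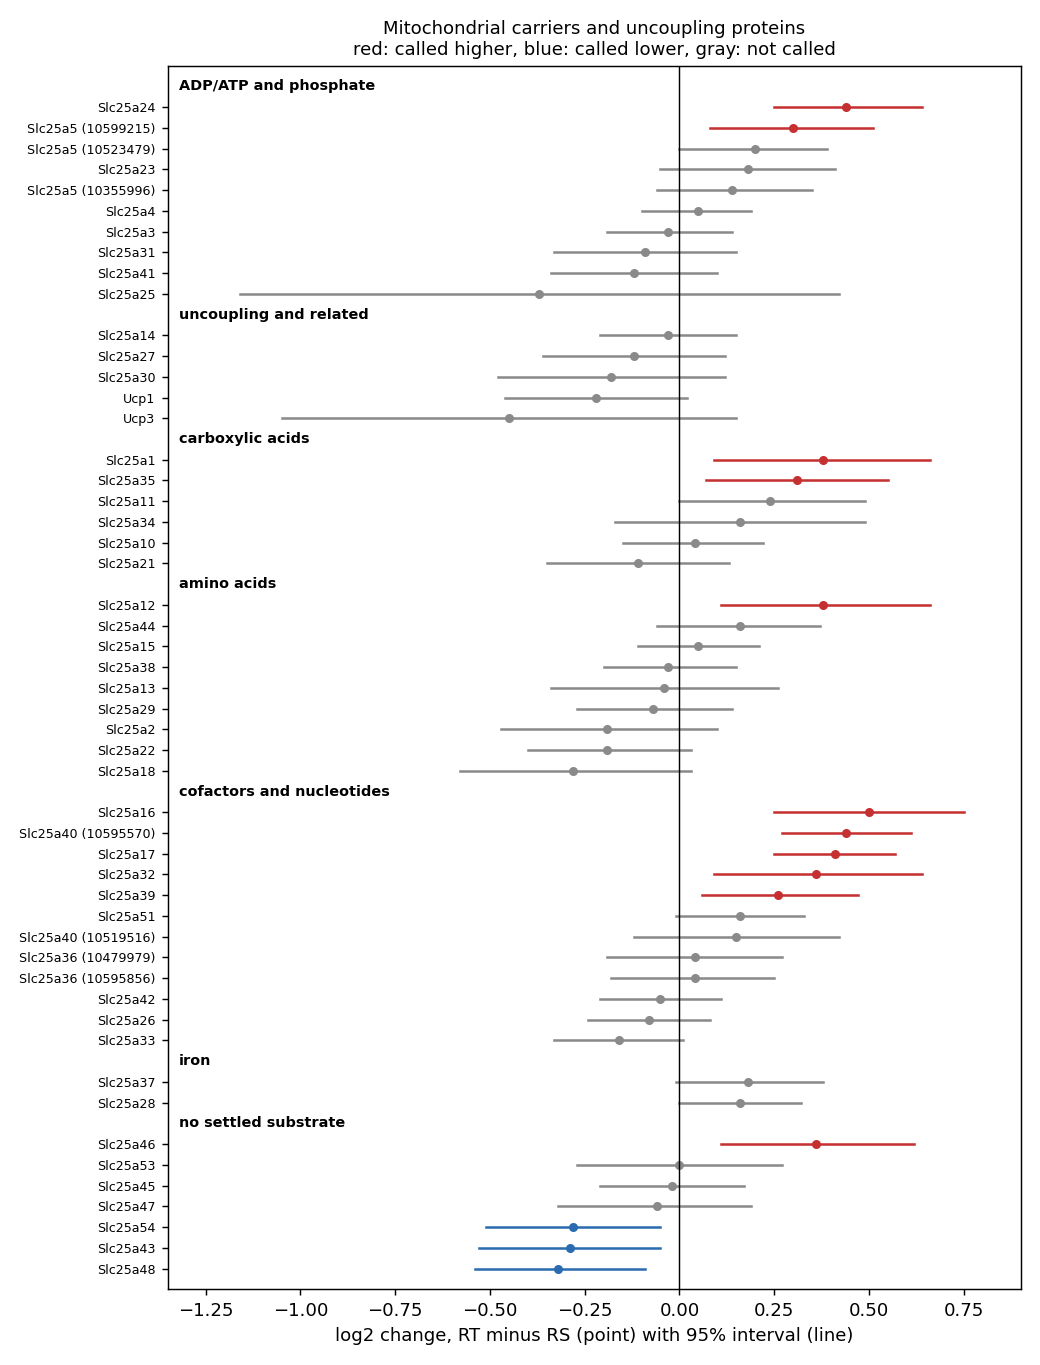
Log2 change of RT against RS with its 95% interval from limma (horizontal axis) for each of the 51 member transcript clusters (vertical axis), grouped by what the carrier moves; red is called higher, blue called lower and gray not called, and numbers in brackets separate the transcript clusters of a gene. The cofactor group, the largest, holds 5 of the 11 red points. The uncoupling group holds none, and on the deposited values all 5 of its points lie left of 0.

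Among the carriers of energy metabolites, which exchange ADP, ATP and phosphate, 2 of 10 transcript clusters of 8 genes were higher, 0 lower and 8 not called, with a median change of 0.09 (−0.37 to 0.44). Beside this and each group count below stand the 11.9% of all transcript clusters that were higher and the 13.0% that were lower. Above the array-wide median signal these shares were 20.6% and 10.7%, and below it 3.21% and 15.3%. Slc25a24 brings ATP-Mg into the matrix in exchange for phosphate and so adjusts the adenine nucleotide pool. Its log2 signal was 4.76 to 5.05 in RS (median 4.89) and 5.13 to 5.62 in RT (median 5.39). The RT mouse with the lowest value was above every RS mouse. The mean rose from 4.92 ± 0.11 to 5.36 ± 0.18 (SD, n = 6 each), by 0.44 ± 0.09 (SE, limma adjusted p = 0.00649), and the change was 0.43 without RS-4 and RS-6.

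Slc25a4 encodes the ADP/ATP carrier of heart and skeletal muscle, and makes up most of that activity in fibers. It was 11.94 to 12.14 in RS (median 12.10) and 12.06 to 12.15 in RT (median 12.11). The RS and RT ranges overlapped, and the lowest values were those of RS-6 and RS-4. The difference was 0.05 (95% interval −0.10 to 0.19, limma adjusted p = 0.663), −0.02 after cyclic loess or with the array spread as a covariate, and 0.00 without RS-4 and RS-6. Slc25a3, which imports phosphate, was 8.59 to 8.95 in RS (median 8.77) and 8.65 to 8.79 in RT (median 8.73). Its difference was −0.03 (−0.19 to 0.14, adjusted p = 0.848) and turned to 0.05 when each array was centered on its median.

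Slc25a5, the ADP/ATP carrier of dividing cells, had 3 transcript clusters that gave different calls. The brightest of them (10523479) was 7.28 to 7.75 in RS (median 7.46) and 7.66 to 7.78 in RT (median 7.70), a difference of 0.20 (0.00 to 0.39) with a limma adjusted p of 0.146. It was called after centering (0.27), without RS-3 (0.25) and without RS-5 (0.24). RS-3 and RS-5 were as high as the RT mice, and the other RS mice were lower. A second one (10599215) was higher by 0.30 (adjusted p = 0.0578), and the remaining one (10355996) differed by 0.14 (adjusted p = 0.326). The gene lies on chromosome X, and of these only 10599215 had neighbors on X: 19 of the 20 transcript clusters closest to it in identifier order. The neighbors of 10523479 and 10355996 were mostly on chromosomes 5 and 1, with 20 of 20 and 18 of 20. Without RS-2, RS-4, RS-6, RT-1 or RT-6 the call of 10599215 ended. The neighbors of the other transcript clusters were on other chromosomes than the gene, so that their assignment to it is uncertain. That leaves 10599215, which was also not called after cyclic loess (0.16) or with the array spread as a covariate (0.13).

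Slc25a25, another ATP-Mg carrier, was not selected by the naming rule and was added after its values were seen, for its spread. It ran from 5.85 to 8.74 in RS (median 7.13) and from 5.82 to 7.58 in RT (median 7.06). The difference was −0.37 with an interval from −1.16 to 0.42 (limma adjusted p = 0.508). RS-5 and RS-6 were the highest and RS-1 and RT-1 the lowest of their groups.

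The uncoupling proteins and their close relatives gave no call on the deposited values, and all 5 measured members had a change below 0, with a median of −0.18 (−0.45 to −0.03). With the array spread as a covariate, Slc25a14, Slc25a27 and Slc25a30 were at 0.03, 0.06 and 0.01, and Ucp1 and Ucp3 at −0.04 and −0.01. Without RS-4 and RS-6, Slc25a14 and Slc25a27 were at 0.02 and 0.04, and Ucp1, Ucp3 and Slc25a30 at −0.09, −0.14 and −0.04. Ucp1 and Slc25a14 lay below the array-wide median signal, where the median change of all transcript clusters was −0.08. Ucp3, the uncoupling protein of skeletal muscle, was 6.89 to 8.80 in RS (median 7.62) and 6.94 to 7.82 in RT (median 7.32). The RS mice separated widely, with RS-4, RS-5 and RS-6 at 8.02, 8.68 and 8.80 and RS-1 to RS-3 within the RT range or just below it. Means were 7.80 ± 0.82 and 7.36 ± 0.31 (SD, n = 6 each), and the difference of −0.45 had an interval from −1.05 to 0.15 (limma adjusted p = 0.282). The mice left out moved it both ways: it was −0.63 and called without RS-1 (adjusted p = 0.0951, with 0.0951 to 0.992 over all settings), −0.25 without RS-6, −0.27 without RS-5 and −0.14 without RS-4 and RS-6. It was −0.59 after cyclic loess, −0.57 after quantile normalization and −0.01 with the array spread as a covariate. Ucp3 and Slc25a25 were both highest in RS-5 and RS-6 among RS mice, and both were highest in RT-4 among RT mice.

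Ucp1, the brown fat uncoupling protein, was 3.03 to 3.60 in RS (median 3.26) and 2.77 to 3.35 in RT (median 3.03), below the array-wide median signal in all 12 mice. The difference was −0.22 (−0.46 to 0.02, limma adjusted p = 0.185). Of the brown fat markers, Cidea, a lipid droplet protein, was lower in RT, with a change of −0.40 (limma adjusted p = 0.0262), but was not called without RS-4 and RS-6. The signal of Cidea, at 3.01 to 4.03, was also below the array-wide median in all 12 mice. Slc25a14, Slc25a27 and Slc25a30, relatives of the uncoupling proteins, differed by −0.03, −0.12 and −0.18.

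**Figure D3:**
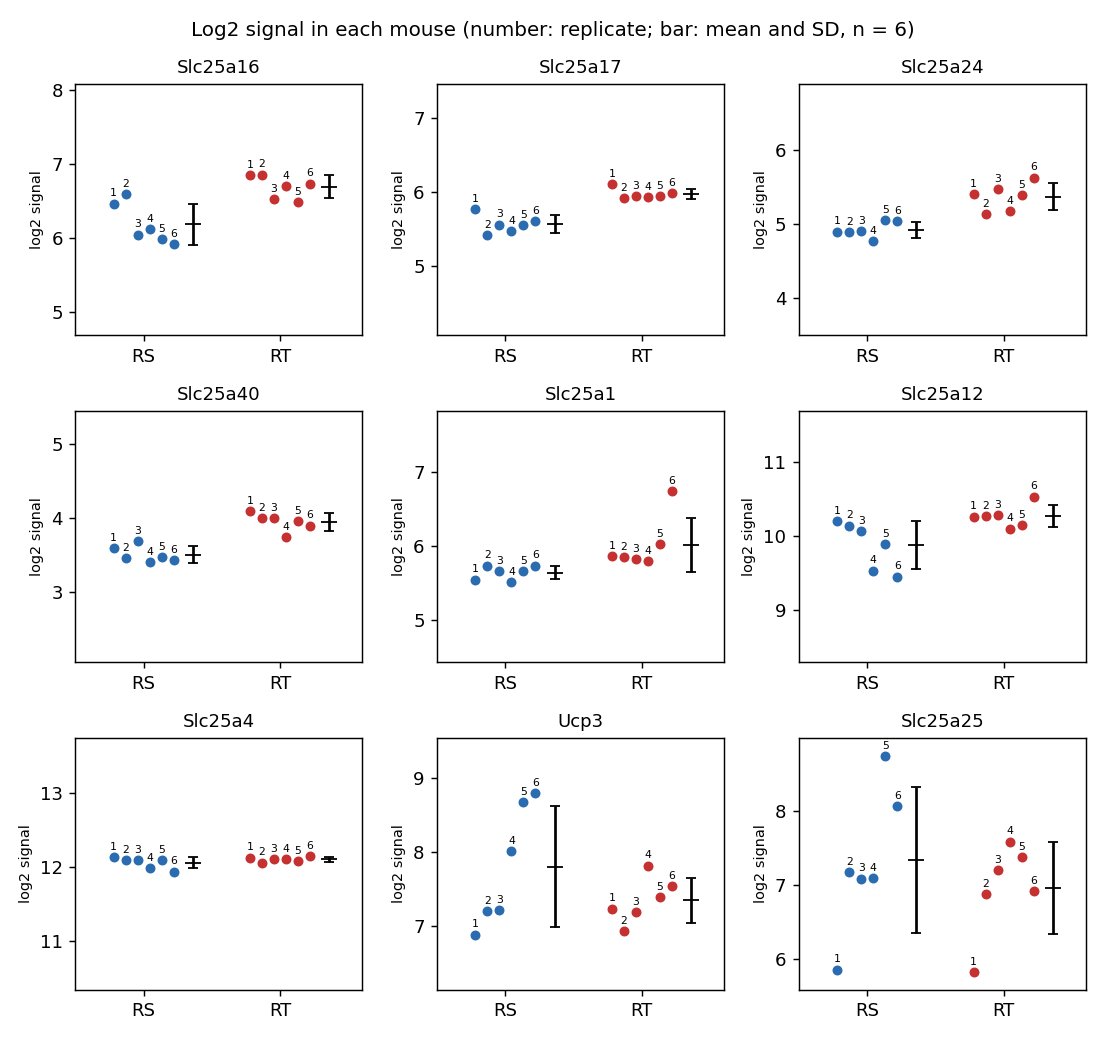
Log2 signal (vertical axes, all of the same length and each centered on its own member) of 9 members in every RS and RT mouse, numbered by replicate, with bars for mean and SD (n = 6 each). Slc25a17, Slc25a24, Slc25a40 and Slc25a1 have no overlap between RS and RT, RT-6 stands above the others in Slc25a1, and RS-5 and RS-6 stand above the others in Ucp3 and Slc25a25.

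Carriers of carboxylic acids link the TCA cycle with the cytosol. They were listed with Slc25a34 and Slc25a35, relatives of such a carrier in yeast whose substrates in mammals are not settled. Of these 6 members, 2 were higher, 0 lower and 4 not called, and the median change was 0.20 (−0.11 to 0.38). Slc25a1 exports citrate, from which the cytosol makes acetyl-CoA. It was 5.51 to 5.73 in RS (median 5.65) and 5.79 to 6.73 in RT (median 5.85). The groups did not overlap, yet 5 RT mice lay between 5.79 and 6.02 and RT-6 alone reached 6.73. The mean rose from 5.64 ± 0.09 to 6.01 ± 0.36 (SD, n = 6 each), by 0.38 ± 0.13 (SE, limma adjusted p = 0.0662). Without RT-6 the change was 0.23 and still called. The call was lost without RS-4 (0.35, adjusted p = 0.124, with 0.0386 to 0.364 over all settings) and without RS-4 and RS-6 (0.37). It was also lost after cyclic loess or quantile normalization (0.30), with array weights (0.32), with the covariate (0.29) and by the methods' test. RT-6 also had the highest adipocyte sum, 9.62, and the lowest slow fiber sum, 10.06.

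Slc25a11, the oxoglutarate-malate carrier of the malate-aspartate shuttle, was 8.31 to 8.97 in RS (median 8.74) and 8.78 to 9.21 in RT (median 8.90). RS-4 and RS-6 were the lowest of all 12 mice. The difference of 0.24 (0.00 to 0.49) was not called on the deposited values (limma adjusted p = 0.161) but was called after centering (0.32) and without RS-1 or RS-3 (0.30 each). It was 0.09 without RS-4 and RS-6 and 0.01 with the array spread as a covariate. Slc25a35 was higher by 0.31 (adjusted p = 0.0723), and 7 of the 12 arrays each ended that call when left out: RS-2, RS-4, RS-6, RT-1, RT-2, RT-3 and RT-6. Slc25a10, Slc25a21 and Slc25a34 were not called, at 0.04, −0.11 and 0.16.

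Amino acid carriers showed 1 member higher, 0 lower and 8 not called out of 9, with a median change of −0.04 (−0.28 to 0.38). Slc25a12, or aralar, exports aspartate for glutamate and is the calcium-responsive carrier of the shuttle in muscle. It was 9.45 to 10.20 in RS (median 9.98) and 10.10 to 10.53 in RT (median 10.26). RS-4 and RS-6, at 9.53 and 9.45, lay far below the other RS mice, RS-1 and RS-2 reached into the RT range, and RT-6 was highest. The mean rose from 9.88 ± 0.32 to 10.26 ± 0.15 (SD, n = 6 each), by 0.38 ± 0.13 (SE, limma adjusted p = 0.0519). The call was lost without RS-4, without RS-6, without RT-6 or by the methods' test, and the change was 0.19 without both RS arrays and 0.10 with the array spread as a covariate.

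Slc25a13, or citrin, the aspartate-glutamate carrier of liver, was 3.36 to 4.06 in RS (median 3.90) and 3.43 to 4.14 in RT (median 3.70). Its signal was below the array-wide median in every mouse. The difference of −0.04 (−0.34 to 0.26, limma adjusted p = 0.863) changed sign, to 0.08 after cyclic loess or a further quantile normalization and to 0.03 after centering. The other amino acid carriers differed by between −0.28, for the glutamate carrier Slc25a18, and 0.16, for the branched-chain amino acid carrier Slc25a44, with no call.

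Cofactor and nucleotide carriers are the largest group. Of 12 transcript clusters of 10 genes, 5 were higher, 0 lower and 7 not called, with a median change of 0.16 (−0.16 to 0.50). Over the whole array, 11.9% of transcript clusters were higher. The group lay above the array-wide median signal except for Slc25a40. Above that median, 20.6% of transcript clusters were higher and the median change was 0.08. With RS-4 and RS-6 left out, 3 of the 12 were called higher, against 5.70% of all transcript clusters. With the array spread as a covariate 2 were, against 2.53%. Each time the uncertain transcript cluster of Slc25a40 described below was among them. Slc25a16, which is tied to coenzyme A in the matrix, had the largest change of the 51 members. It was 5.92 to 6.60 in RS (median 6.09) and 6.49 to 6.86 in RT (median 6.72). RS-1 and RS-2 were higher than the other RS mice, and only RS-2 reached into the RT range. The mean rose from 6.19 ± 0.28 to 6.70 ± 0.16 (SD, n = 6 each), by 0.50 ± 0.12 (SE, limma adjusted p = 0.0124). The call held without any 1 of the 12 arrays (0.45 to 0.58) but was lost with the array spread as a covariate (0.37, adjusted p = 0.149, the highest of a range from 0.00504). Slc25a42, the other coenzyme A carrier, differed by −0.05 (−0.21 to 0.11).

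Slc25a17 is a carrier of the peroxisome, not the mitochondrion, and exchanges coenzyme A, FAD and NAD there. It was 5.42 to 5.77 in RS (median 5.56) and 5.92 to 6.11 in RT (median 5.95). RT values lay close together, apart from a high RT-1, and above all RS values. From RS to RT the mean rose from 5.56 ± 0.12 to 5.98 ± 0.07 (SD, n = 6 each), by 0.41 ± 0.08 (SE, limma adjusted p = 0.00365). The change was 0.40 without RS-4 and RS-6, 0.35 with the covariate and 0.34 after cyclic loess, and was called in each.

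Slc25a40 and Slc25a39 serve the import of glutathione into the matrix. The brighter of 2 transcript clusters assigned to Slc25a40 (10595570) was 3.41 to 3.69 in RS (median 3.46) and 3.74 to 4.09 in RT (median 3.98). All RT mice were above all RS mice, although both groups lay under the array-wide median signal. The mean rose from 3.51 ± 0.11 to 3.95 ± 0.12 (SD, n = 6 each), by 0.44 ± 0.08 (SE, limma adjusted p = 0.00333). The other transcript cluster (10519516) differed by 0.15 (−0.12 to 0.42, adjusted p = 0.424). The gene lies on chromosome 5, and all 20 neighbors of 10519516 in identifier order were there, whereas all 20 neighbors of 10595570 were on chromosome 9. The assignment of 10595570 to Slc25a40, and with it the increase of this gene, is therefore uncertain. Slc25a39 was higher by 0.26 (adjusted p = 0.0741), a call that ended without RS-4, RS-5, RS-6, RT-1, RT-3, RT-4 or RT-6.

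Slc25a32, which carries folate and FAD into the matrix, was higher by 0.36 (limma adjusted p = 0.0683). Its call ended without RS-4, RS-5, RS-6, RT-2, RT-3 or RT-6. The brightest transcript cluster of the group (10479979), assigned to the pyrimidine nucleotide carrier Slc25a36, was 7.29 to 7.91 in RS (median 7.66) and 7.50 to 7.88 in RT (median 7.70). Its difference of 0.04 (−0.19 to 0.27, adjusted p = 0.816) turned to −0.10 when arrays were adjusted by cyclic loess and to −0.08 when they were quantile normalized again. The gene lies on chromosome 9 and 19 of 20 neighbors on chromosome 2, so that its assignment is uncertain as well, and the other transcript cluster of Slc25a36 also differed by 0.04. Slc25a51, the NAD carrier, Slc25a26, which carries S-adenosylmethionine, and Slc25a33, a pyrimidine nucleotide carrier, differed by 0.16, −0.08 and −0.16.

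Mitoferrins bring iron into the matrix for heme and iron-sulfur clusters. Neither was called on the deposited values by limma. Slc25a28, the mitoferrin of most tissues, was 6.11 to 6.26 in RS (median 6.22) and 6.18 to 6.51 in RT (median 6.40). Of the RT mice, 4 were above every RS mouse, and RT-1 and RT-3 were not. The difference was 0.16 (0.00 to 0.32, limma adjusted p = 0.165). It was called by the methods' test and after centering (0.23), and was 0.04 after cyclic loess or quantile normalization. Slc25a37, the erythroid mitoferrin, differed by 0.18 (adjusted p = 0.167). The 3 erythroid markers measured went different ways: Alas2, which begins heme synthesis, rose by 1.01 (adjusted p = 0.00047), Slc4a1, the anion exchanger of red cells, differed by 0.03, and Epb42, a protein of their membrane skeleton, fell, with a change of −0.33 (adjusted p = 0.0301).

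Of the 7 family members without a settled substrate, 1 was higher, 3 were lower and 3 were not called, with a median of −0.06 (−0.32 to 0.36). Slc25a46 is a protein of the outer membrane that acts in mitochondrial fusion and cristae upkeep rather than in transport. It was 6.30 to 7.10 in RS (median 6.84) and 6.93 to 7.36 in RT (median 7.19). RS-6 was far the lowest and RT-6 the highest. Its mean rose from 6.81 ± 0.30 to 7.18 ± 0.14 (SD, n = 6 each), by 0.36 ± 0.12 (SE, limma adjusted p = 0.0534), and the call was lost without RT-6 (0.33, adjusted p = 0.114, within 0.0248 to 0.547 over all settings) and by the methods' test. It was also lost, at smaller changes, after quantile normalization (0.24), after cyclic loess (0.23), without RS-4 and RS-6 (0.21) and with the covariate (0.14).

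All 3 members called lower belonged to this group and had signals below the array-wide median. Slc25a48 was 3.87 to 4.42 in RS (median 4.04) and 3.52 to 3.97 in RT (median 3.76). RS-2 was the highest, and the groups overlapped. The mean fell from 4.07 ± 0.21 to 3.75 ± 0.18 (SD, n = 6 each), a change of −0.32 ± 0.11 (SE, limma adjusted p = 0.0561), and the call ended without RS-2, RS-6, RT-2 or RT-6, after each of the 3 further normalizations and with the replicate number as a block. Slc25a43 and Slc25a54 were lower as well, with changes of −0.29 and −0.28 (adjusted p = 0.0879 and 0.0896). The first call ended without RS-2, RS-4 or any RT array but RT-1, and the other without RS-4, RS-5 or any RT array but RT-2.

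**Figure D4:**
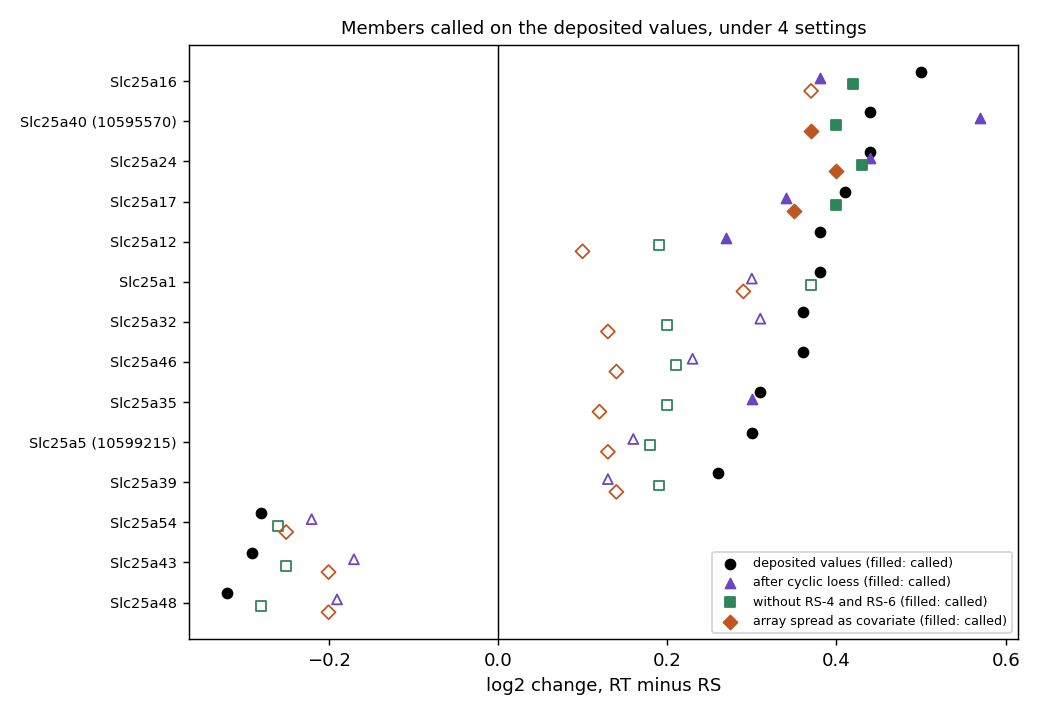
Log2 change of RT against RS (horizontal axis) for the 14 transcript clusters called on the deposited values (vertical axis), as deposited, after cyclic loess, without RS-4 and RS-6, and with the array spread as a covariate; filled symbols are called. Slc25a17, Slc25a24 and Slc25a40 are filled in all 4 settings, and the 3 lower members are open in all but the first.

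Partners of the carriers were read from 4 lists, each gene from its brightest transcript cluster. The neighbors of these transcript clusters were not looked at, so their assignment, also for Vdac2 and Hk1, was not checked. Over the whole array, 11.9% of transcript clusters were higher and 13.0% lower. Among those above the array-wide median signal the shares were 20.6% and 10.7%. Carriers reach the inner membrane through the TOM complex of the outer membrane, small TIM chaperones and TIM22. Of 16 measured import genes out of 17, 1 was higher, 1 lower and 14 not called, with a median change of 0.08. Tomm5, a small TOM subunit, rose by 0.36, from a mean of 6.30 to 6.66 (limma adjusted p = 0.0158), and Tomm7, another one, fell from 8.46 to 8.19, a change of −0.27 (adjusted p = 0.038). Neither was called with the array spread as a covariate. The other channels and carriers of both membranes had 4 of 22 measured genes (26 listed) higher, 0 lower and 18 not called, with a median change of 0.15. Vdac2, a pore of the outer membrane, rose by 0.43 (adjusted p = 0.0409), and Sfxn1, the mitochondrial serine carrier, by 0.37 (adjusted p = 0.0108). Mcu, the pore of the calcium uniporter, at 0.37 (adjusted p = 0.0236), and Letmd1, an inner membrane protein, at 0.21 (adjusted p = 0.079), were named after their values were seen. Without RS-4 and RS-6, 2 of these 4 were still called, Sfxn1 and Letmd1.

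The enzymes that work with the shuttles were higher in 3 of 7 genes, with 0 lower, 4 not called and a median change of 0.25. All 7 lay above the array-wide median signal, where 20.6% of transcript clusters were higher and the median change was 0.08. Gpd1, the cytosolic enzyme of the glycerol phosphate shuttle, rose by 0.50 (limma adjusted p = 0.0456), and Acly, which splits the citrate exported by Slc25a1, by 0.47 (adjusted p = 0.0216). Mdh2, malate dehydrogenase of the matrix, rose by 0.25 (adjusted p = 0.0792) and was named after its values were seen. Acly was the 1 gene of these 3 called without RS-4 and RS-6, and none was called with the array spread as a covariate. Of the 8 measured partners of ADP/ATP exchange (9 listed), which include the creatine kinases Ckm and Ckmt2 and the ATP synthase subunits Atp5a1 and Atp5b, 0 were called by limma in either direction, 0 at an unadjusted p under 0.05 and 0 by the methods' test, and their median change was 0.02. With the array spread as a covariate, 1 of them, the hexokinase Hk1, was called lower. Ckmt2, the mitochondrial creatine kinase of muscle, differed by −0.03, and Atp5b by 0.16.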

How the data were processed

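The deposited table holds log2 signals of 28944 transcript clusters from 12 Affymetrix Mouse Gene ST arrays, which the authors background-corrected, summarized and normalized by RMA; their methods name both RMA and its SST variant. It held 0 columns of other samples. Signals are brightness, not counts, so precision is set by the number of arrays. Groups and replicate numbers came from the labels. The annotation gave 1 symbol to 21789 transcript clusters, several to 1621 and none to 5534.

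The comparison of RT with RS used limma 3.58.1 (lmFit, eBayes; R 4.3.3), two-sided and without covariates, over all transcript clusters, and the script was first tested on simulated data. A transcript cluster was called at p under 0.05 and adjusted p under 0.1, as in the methods. Every adjusted p in the text is limma's. The methods' test is their one-way comparison at the same thresholds.

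The members and lists were chosen with earlier results of these data known. Values are given in full for the muscle and uncoupling carriers, called members without overlap, and per role the largest called change in each direction and the highest mean signal, and per partner list for up to 2 called genes in each direction. Brown fat, heme and marker genes beside a result, and members named by their change alone, are extra. Alternatives were quantile, median and cyclic loess normalization, the dimmest 33.3% left out, the methods' test, trended robust variance, array weights, the array spread as covariate, a replicate block, arrays left out, an adjusted p under 0.05, and 1-symbol transcript clusters alone. The mice were treated as unpaired, since the labels give no pairing. Deviations of arrays with the same number correlated between −0.24 and 0.11, and so few correlations cannot exclude a pairing. No 2 arrays were identical. Neighbors are the 10 transcript clusters on each side in identifier order, placed by the RefSeq gene table. Protein sequences were not used here.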

Additional observations from a re-analysis of the deposited data

Results flagged for a closer look

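In 6 of 102 sets of 6 mice, 2 for each of the 51 members, a single mouse stood apart from the other 5 by more than Dixon's 95% critical value. Chance gives such a mouse in about 1 of 20 sets. In all 6 the mouse was from RT and high. Slc25a1, the citrate carrier, was at 6.73 in RT-6 against 5.79 to 6.02 in the others, and Slc25a38, which imports glycine for heme synthesis, was at 6.01 in the same mouse against 5.66 to 5.79. Slc25a30, a relative of the uncoupling proteins, was at 6.35 in RT-4 against 5.41 to 5.76, and Slc25a45, an orphan carrier, was at 4.94 in that mouse against 4.69 to 4.78. Slc25a17 was at 6.11 in RT-1 against 5.92 to 5.99, and all 6 values lay above those of RS. Slc25a2, an ornithine carrier, was at 3.36 in RT-2 against 2.62 to 2.79, under the array-wide median signal.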

How the results depend on the processing

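Of the 14 calls, 4 held without each of the 12 arrays in turn. Against 11 higher members there were 6 after a further quantile normalization or cyclic loess, 17 after centering on the median, 3 with the spread covariate, 4 without RS-4 and RS-6 or at an adjusted p under 0.05, 7 by the methods' test, and 5 to 13 with an array left out (5 without RS-4 or RT-6, 6 without RS-6). Against 3 lower members there were 0 after centering, with the covariate, without RS-4 and RS-6 or at an adjusted p under 0.05, 1 by the methods' test, and 0 to 5 with an array left out (0 without RT-6, 5 without RS-1). With the replicate number as a block (replicate block) 11 were higher and 0 lower. Shares of all transcript clusters are given above for cyclic loess, centering, the covariate and the fit without RS-4 and RS-6. For the other settings they are not given here, so those counts do not show whether the carriers differed from the whole array. The median change was 0.02 after quantile normalization, 0.11 after centering, 0.01 after cyclic loess and −0.01 to 0.04 with an array left out. Against 8 higher partner genes there were 17 after centering, 1 with the covariate, 4 without RS-4 and RS-6, and 5 to 15 with an array left out. Against 1 lower there were 2 after quantile normalization, cyclic loess, the dim filter, trended robust variance or array weights, and 1 to 2 with an array left out. Signs turned for uncalled members: Slc25a13 to 0.08 (quantile, loess) and 0.03 (centering), Slc25a3 to 0.05 (centering), Slc25a36 to −0.08 (quantile) and −0.10 (loess), Slc25a4 to −0.02 (loess, covariate) and 0.00 (without RS-4 and RS-6). With an array left out they spanned −0.13 to 0.02, −0.06 to 0.01 and −0.03 to 0.10 for the first 3. Of 407 values of named members under an alternative, 348 kept direction and call, 35 lost a call, 9 gained one and 15 changed sign. The causes were not tested.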
